A study of Mus musculus with 4 samples.

Results

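Sprouty, Spred and PEA3-type ETS genes, together with Phlda1, were followed across 4 arrays of the mouse line Ba/F3. The 10 genes were chosen by name: the Sprouty genes Spry1, Spry2 and Spry4, the Spred genes Spred1, Spred2 and Spred3, the PEA3 ETS factors Etv1, Etv4 and Etv5, and Phlda1. All 10 were found among the 19935 genes measured, through 13 of the 28815 probe sets, and a gene's probe sets were averaged. Ba/F3 is a pro-B cell line that depends on the growth factor interleukin-3 (IL-3). One array came from parental cells kept in IL-3. The other arrays came from Ba/F3 cells carrying a doxycycline-inducible form of the leukaemia kinase BCR-ABL and kept in 500 ng/ml doxycycline: 2 without the growth factor, named A and B, and 1 with it. All cells grew to logarithmic phase in serum-containing RPMI, and the labels mention doxycycline for the inducible line alone. The labels do not say whether that line is a single clone, or whether A and B were separate cultures, so the p-values below rest on a spread that may be only technical.

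Growth factor receptors and BCR-ABL switch on RAS, and RAS drives the kinase chain from RAF through MEK to ERK. Active ERK raises the transcription of its own brakes. Sprouty proteins dampen signalling between receptor and RAF, Spred proteins bring the RAS inhibitor neurofibromin to the membrane, and dual-specificity phosphatases remove phosphate from ERK. Etv1, Etv4 and Etv5 encode transcription factors that many cells express when ERK is active, in part because ERK lifts repression by the protein capicua (Cic). Phlda1 encodes a protein with a pleckstrin homology-like domain and is often used with these genes as a readout of ERK output.

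Every deposited value is a difference from the parental array, whose own value is 0 for each gene, and is read here as log2. Levels could therefore not be set against each other, and markers of the pro-B cell type could not be checked as levels. In bulk RNA, fewer cells with a transcript and less of it per cell cannot be told apart. The median over all genes was 0.0044 on A, -0.08 on B and 0.0085 on the IL-3 array, and the SD over genes of B minus A was 0.196. That SD was 0.152 for A minus the IL-3 array and 0.222 for B minus the IL-3 array. Etv1 was dim, in that both its probe sets had a stored signal below 8 on some array. So had at least 1 probe set of 36.1% of all genes. No such sign was seen for the other 9 genes, although the test misses some dim genes. Of 7 B cell markers 0 were called in either comparison below, with a median difference of -0.12 for the cells without IL-3. Over all genes 5.19% were called higher and 2.87% lower without IL-3 than in parental cells. Of 8 mast cell and basophil markers Cpa3 (log2 3.04) and Hdc (0.74, a call lost after centring each array on its median) were called higher. For those 8 the median was -0.14, and 3 were above 0. Of 5 erythroid and megakaryocyte markers Klf1 (-0.92) and Epor (-0.70) were called lower, with a median of -0.46 and 1 above 0. Of 7 neutrophil and monocyte and 6 T and NK cell markers 0 were called. Of 6 markers listed as non-haematopoietic Pecam1 (0.59), which blood cells also express, was called higher. The part of these shifts in the results below was not tested.

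BCR-ABL cells without IL-3 were first compared with parental cells, which asks how the genes stand when the kinase replaces the growth factor. Etv5 and Phlda1 were each more than 2-fold higher and Spred1 was 1.46-fold higher in the BCR-ABL cells. With a limma adjusted p under 0.05 as the rule, 3 of the 10 genes were called higher and 0 lower, and 2 higher and 0 lower after centring each array on its median, which ended the call of Spred1. Over all genes 5.19% were called higher and 2.87% lower, 8.06% together. The median of the 10 differences was 0.36 (log2), beside -0.04 over all genes. On A alone the median was 0.20 and on B alone 0.50. Both A and B lay above the parental array for 6 of the 10 genes and 27.9% of all genes, and below it for 2 of the 10 and 42.0% of all. At least 2-fold above the parental array on both A and B were 2 of the 10 genes, and 0.903% of all genes. The effects of the kinase, of doxycycline, of the inducible line and of IL-3 withdrawal cannot be told apart here, and the lone parental array is assumed to vary as A and B do.

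**Figure D1:**
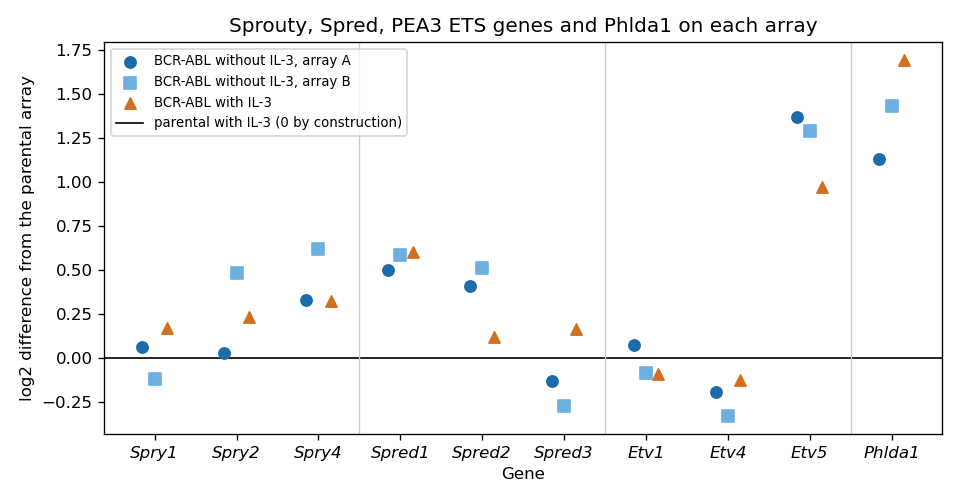
Log2 difference from the parental array (vertical axis) for each of the 10 genes (horizontal axis) on array A (circles), array B (squares) and the BCR-ABL array with IL-3 (triangles), with the parental array as the line at 0. Etv5 and Phlda1 lie between 0.97 and 1.69 on the 3 arrays, while Etv4 lies below 0 on all of them.

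Etv5 showed the largest difference of the 3 PEA3 factors. Its log2 difference from the parental array was 1.37 on A, 1.29 on B and 0.97 on the array with IL-3. The 2 arrays without IL-3 thus lay close together, and the array with IL-3 was lower than both. Without IL-3 it was 2.51-fold higher than in parental cells (log2 1.33, SE 0.15, n = 2 against 1, limma adjusted p = 1.61e-05), which ranked it 118 of 19935 genes counted from the highest difference. Etv5 lies on chromosome 16 (RefSeq, GRCm38.p6, 22381313 to 22439570, minus strand) and had 2 probe sets. Probe set 10438626, whose 19 nearest placed neighbours by identifier include 18 for genes of chromosome 16, was higher by 1.39. Probe set 10363901 was higher by 1.27, and all 20 of its neighbours stand for genes of chromosome 10. Where the probes of that set align was not analysed here, and the gene was called on either probe set alone.

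Etv4 and Etv1, the other PEA3 factors, were not called. Etv4 stood at -0.19 on A, -0.33 on B and -0.13 on the array with IL-3, below the parental array on each, and did not pass (log2 -0.26, SE 0.16, limma adjusted p = 0.495). Its interval of 95% without IL-3 ran from -0.59 to 0.07. Etv1 stood at 0.07 on A, -0.08 on B and -0.09 with IL-3, on both sides of the parental array. Its estimate of -0.01 had an interval from -0.33 to 0.32, and after subtracting each array's median the estimate was 0.03. Of its 2 probe sets, which were at -0.04 and 0.03, the second (10406934) has 16 of 18 placed neighbours on chromosome 13, while the gene lies on chromosome 12.

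Phlda1 was about as high as Etv5 without IL-3, with another order of the arrays. It was at 1.13 on A, 1.43 on B and 1.69 on the array with IL-3, the highest of the 3. Without IL-3 it was 2.43-fold higher than in parental cells (log2 1.28, SE 0.17, limma adjusted p = 5.36e-05), rank 133 of 19935. Its A to B gap of 0.30 was wider than that of Etv5 (-0.08), and 10.5% of genes had a wider one. The gene lies on chromosome 10, from 111506286 to 111508649 (GRCm38.p6).

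The Spred genes encode membrane-bound RAS inhibitors with an EVH1 domain, and 1 of the 3 was called. Spred1 was at 0.50 on A, 0.59 on B and 0.60 with IL-3, nearly the same on the 3 BCR-ABL arrays. It was 1.46-fold higher without IL-3 than in parental cells (log2 0.55, SE 0.15, limma adjusted p = 0.0339), and with centred arrays it did not pass (limma adjusted p = 0.0707), although its difference was then 0.58. Centring also lowered the prior of the fit from 16.38 to 5.016 degrees of freedom. Spred2 was at 0.41 on A and 0.51 on B but at 0.12 on the array with IL-3. Its difference without IL-3 of 0.46 did not pass (SE 0.15, limma adjusted p = 0.0809). Tested alone, its probe set 10374464 passed (log2 0.54, limma adjusted p = 0.0394) and probe set 10374455 did not (log2 0.39, limma adjusted p = 0.166). Spred3 was at -0.13 on A, -0.27 on B and 0.17 with IL-3, so that the array with IL-3 lay above the parental array and the other two below it. Its difference of -0.20 without IL-3 did not pass (SE 0.16, limma adjusted p = 0.704).

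None of the 3 Sprouty genes was called. Spry4 was at 0.33 on A, 0.62 on B and 0.32 with IL-3, above the parental array on each. Its difference without IL-3 was 1.39-fold (log2 0.48, SE 0.16, limma adjusted p = 0.0943), and it and Spred2 would pass at an adjusted p under 0.1. Spry2 was at 0.03 on A, 0.49 on B and 0.24 with IL-3. Its estimate of 0.26 (SE 0.18, limma adjusted p = 0.631) therefore rested on B, and 2.8% of genes had a wider gap between A and B than its 0.45. Spry1 was at 0.06 on A, -0.12 on B and 0.17 with IL-3, with an estimate of -0.03 and an interval from -0.36 to 0.30. That estimate turned to 0.0098 after centring.

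**Figure D2:**
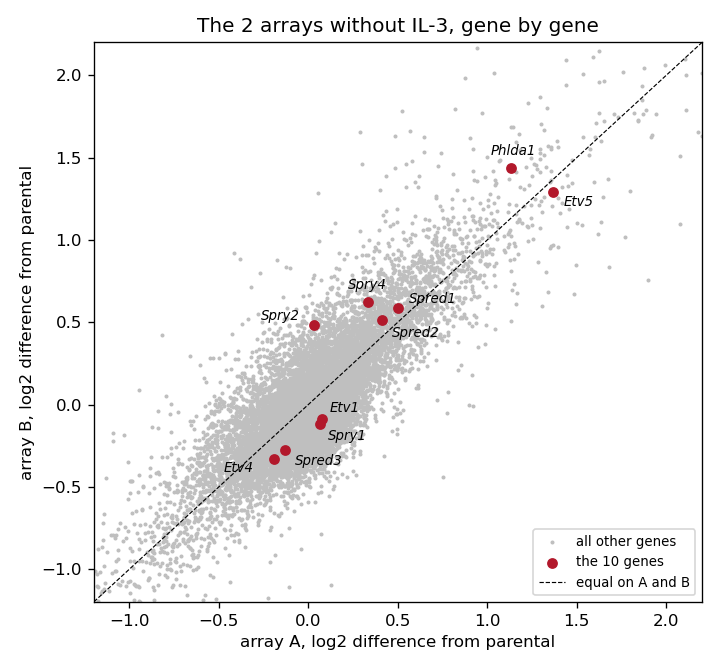
Log2 difference from the parental array on array A (horizontal axis) and on array B (vertical axis), with each of 19935 genes as a grey point, the 10 genes in red and the dashed line where A and B are equal. Of the genes 115 lie outside the axes. Etv5 and Phlda1 lie apart from the bulk of genes, and Spry2 stands 0.45 above the dashed line.

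Windows upstream of start sites of 4 genes are shown. Those of Etv5 and Spred1 are shown because the genes were called. Those of Spred3 and Spry2 are shown because, with Etv5, they held a capicua octamer. RefSeq promoter windows (GRCm38.p6) were matched for 7 of the 10 genes, in 9 windows since Etv1 and Etv5 have 2 start sites each. The 250 bases before each start were read on the gene's strand. No window was matched for Spry4, Etv4 or Phlda1, although Phlda1 was also called. Capitals mark GGAA or its complement TTCC, the core that ETS proteins bind, and the 8 capicua octamers on either strand, which read T, then G or C, then AATG, then A or G at each of the last positions.
Etv5, chr16:22439571-22439820, minus strand: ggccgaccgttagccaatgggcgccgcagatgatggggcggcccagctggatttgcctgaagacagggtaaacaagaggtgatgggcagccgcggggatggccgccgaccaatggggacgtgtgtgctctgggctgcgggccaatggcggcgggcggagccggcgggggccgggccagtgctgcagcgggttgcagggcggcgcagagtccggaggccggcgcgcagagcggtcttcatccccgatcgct
Etv5, chr16:22438369-22438618, minus strand: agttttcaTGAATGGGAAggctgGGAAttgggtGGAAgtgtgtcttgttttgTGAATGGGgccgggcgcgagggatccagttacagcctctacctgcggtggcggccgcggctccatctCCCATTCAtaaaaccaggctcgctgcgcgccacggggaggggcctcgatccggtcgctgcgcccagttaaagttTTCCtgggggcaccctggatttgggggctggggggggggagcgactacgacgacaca
Spred1, chr2:117120821-117121070, plus strand: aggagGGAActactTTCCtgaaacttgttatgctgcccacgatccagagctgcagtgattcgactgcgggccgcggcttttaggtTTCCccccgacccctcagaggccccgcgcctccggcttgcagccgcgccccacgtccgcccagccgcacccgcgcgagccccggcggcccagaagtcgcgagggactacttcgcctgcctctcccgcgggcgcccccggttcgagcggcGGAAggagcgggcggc
Spred3, chr7:29168648-29168897, minus strand: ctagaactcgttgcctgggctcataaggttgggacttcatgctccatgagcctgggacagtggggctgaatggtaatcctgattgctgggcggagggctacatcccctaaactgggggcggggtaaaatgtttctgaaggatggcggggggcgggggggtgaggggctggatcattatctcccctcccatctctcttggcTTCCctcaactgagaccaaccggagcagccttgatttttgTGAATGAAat
Spry2, chr14:105896820-105897069, minus strand: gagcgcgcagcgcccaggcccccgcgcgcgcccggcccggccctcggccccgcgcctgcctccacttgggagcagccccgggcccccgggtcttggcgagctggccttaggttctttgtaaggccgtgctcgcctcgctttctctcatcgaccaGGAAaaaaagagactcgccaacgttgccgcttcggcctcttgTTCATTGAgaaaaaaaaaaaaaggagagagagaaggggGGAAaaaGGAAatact

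The first Etv5 window held 0 such cores and the second 4, Spred1 held 4, Spred3 1 and Spry2 3, where the median over all 32851 windows was 3 and 93.4% held at least 1. Of the members not printed, Spred2 held 7 and Spry1 1, and the Etv1 windows held 2 and 1. The longer ETS motif CCGGAA was in 0 of the 9 windows on either strand and in 12.0% of all windows. A capicua octamer was in 3 of the 9 windows and in 5.86% of all windows. The second Etv5 window held 3, each TGAATGGG or its complement (0.931% of all windows), and 1 of them overlaps a GGAA. Spred3 held 1, TGAATGAA (1.08% of all), and Spry2 held 1, TCAATGAA on the other strand (0.642% of all). The Spred3 window lies inside the RefSeq span of the gene, 29157783 to 29170070 on chromosome 7. The AP-1 motif TGACTCA was in 0 of the 9 windows and 4.46% of all. GC content was 71.2% and 62.0% in the Etv5 windows, 70.8% in Spred1, 55.6% in Spred3 and 62.4% in Spry2, beside a median of 52.4% over all windows. A match here describes the letters of a short window and is not evidence of binding.

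BCR-ABL cells with IL-3 were then compared with BCR-ABL cells without it, which asks how IL-3 shifts these genes in cells that already have the kinase. The genes split, with 5 higher and 5 lower with IL-3, and the largest difference was that of Phlda1 at 0.41 (log2). By limma 0 of the 10 genes were called, and 0.00502% of all genes, which is 1 gene. At an unadjusted p under 0.05 there were 4 of the 10 genes and 4.52% of all genes. After centring there were 3 of the 10, and the share over all genes was then not computed. The median of the 10 differences was 0.02, beside 0.03 over all genes, and it turned to -0.03 after centring. A and B enter both comparisons, so the values of a gene in the first and second comparison are not independent.

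The 4 genes with an unadjusted p under 0.05 fell on both sides. Phlda1 was higher on the IL-3 array than on A and on B (log2 0.41, 95% interval 0.06 to 0.76, limma adjusted p = 0.952), and after centring its interval held 0 (-0.07 to 0.80). Spred3 was also above both (0.37, interval 0.04 to 0.70). Etv5 lay below both A and B (-0.36, interval -0.68 to -0.03), by -0.47 on probe set 10438626 and -0.25 on probe set 10363901. Spred2 lay below both as well (-0.34, interval -0.67 to -0.02), by -0.30 and -0.39 on its 2 probe sets. In the fit over genes no adjusted p of these 4 was under 0.95, and with probe sets tested singly the lowest for Etv5 was 0.687 and for Spred2 0.859 (limma). The IL-3 array lay above A and B for 5 of the 10 genes and 39.9% of all genes, and below both for 4 of the 10 and 25.5% of all.

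The other 6 genes differed less. Spred1 differed by 0.06 (interval -0.27 to 0.38) and Spry4 by -0.15 (-0.50 to 0.19), so neither interval reached a 2-fold difference. Spry2 was at 0.21 when set against A and at -0.25 when set against B. Spry1 (0.20), Etv4 (0.14) and Etv1 (-0.08) had intervals that held 0.

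**Figure D3:**
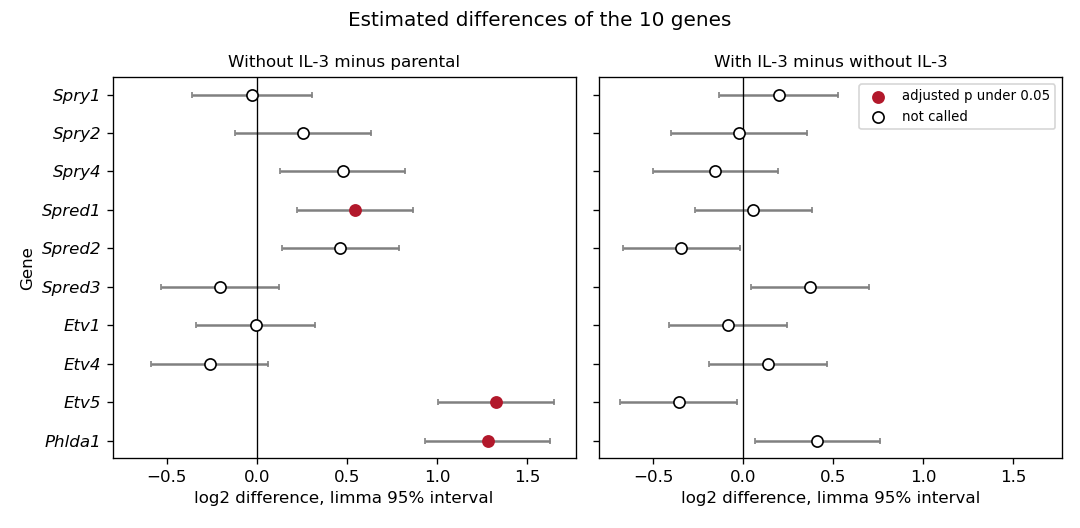
Estimated log2 differences of the 10 genes (points) with 95% intervals from limma (bars), for BCR-ABL without IL-3 minus parental (left) and BCR-ABL with IL-3 minus without (right), with filled points for an adjusted p under 0.05. Etv5, Phlda1 and Spred1 are filled on the left, and no point is filled on the right.

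BCR-ABL cells with IL-3 were last set against parental cells, which also had IL-3, so that the growth factor was the same on both sides, and the kinase, doxycycline and the inducible line were not. With 1 array on each side there is no replicate check. Phlda1 was 3.24-fold higher, the only one of the 10 genes at least 2-fold apart, where 1.10% of all genes were that much higher and 0.517% that much lower. Etv5 was 1.96-fold and Spred1 1.52-fold higher, and Spred2 1.09-fold. At least 1.5-fold higher were thus 3 of the 10 genes and 3.30% of all genes, and at least 1.5-fold lower 0 of the 10 and 2.53% of all. Of the 10 genes 8 were above the parental array, with a median of 0.20 beside 0.0085 over all genes. The parental array is shared with the first comparison.

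The genes around this feedback were taken as lists. The MAPK activity score list has 10 genes, 5 of which (Phlda1, Spry2, Spry4, Etv4 and Etv5) belong to the genes above. Without IL-3 4 of the 10 were called higher than in parental cells and 0 lower, beside 5.19% and 2.87% of all genes. The list's median was 0.37. Besides Etv5 and Phlda1 the called genes were the ERK phosphatases Dusp6, at 1.30 on A, 1.24 on B and 1.17 with IL-3, and Dusp4, at 0.64, 0.67 and 0.96. The cyclin gene Ccnd1 (0.04) and the ephrin receptor genes Epha2 (-0.01) and Epha4 (-0.08) had estimates within 0.1 of the parental array and did not pass. With IL-3 added, 0 of the 10 were called.

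Of 17 measured inhibitors of RAS and ERK signalling 5 were called higher and 1 lower without IL-3, beside 5.19% and 2.87% of all genes. The list's median was -0.04. The higher ones were Dusp4, Dusp6, Dusp5 (log2 2.24), Dusp7 (0.81) and Rasa2 (0.80), a GTPase-activating protein for RAS. Cblb, a ubiquitin ligase, was lower at -0.78, and lost its call after centring (limma adjusted p = 0.0821). Nf1, which encodes the neurofibromin that Spred proteins bind, stood at -0.28 and did not pass. Of 22 listed genes of the RAS to ERK cascade 15 were measured. Of these 15, 1 was called higher and 0 lower, beside 5.19% and 2.87% of all genes. Their median was -0.01. The called gene was Sos1, a RAS exchange factor (log2 0.96), and centring ended its call (limma adjusted p = 0.0629). The other 7 of the list were not analysed here.

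Of 8 measured genes on the list of capicua, its partners and other PEA3 regulators 0 were called in either comparison by limma, with a median of -0.14 without IL-3. Cic itself, which encodes capicua, was at -0.08 on A, -0.24 on B and 0.03 with IL-3. Among 22 ETS factors outside the PEA3 group 1 was called higher without IL-3 and 0 lower, beside 5.19% and 2.87% of all genes. Their median was -0.02. The called gene was Etv3, an ETS repressor, at 0.86 on A, 0.84 on B and 1.19 with IL-3 (log2 0.85, limma adjusted p = 0.00132). Ets2 stood at 0.49 and did not pass. After centring, the medians of the cascade list and of these ETS factors were 0.02 and 0.01. With IL-3 added to BCR-ABL cells, 0 members of any of these lists were called.

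**Figure D4:**
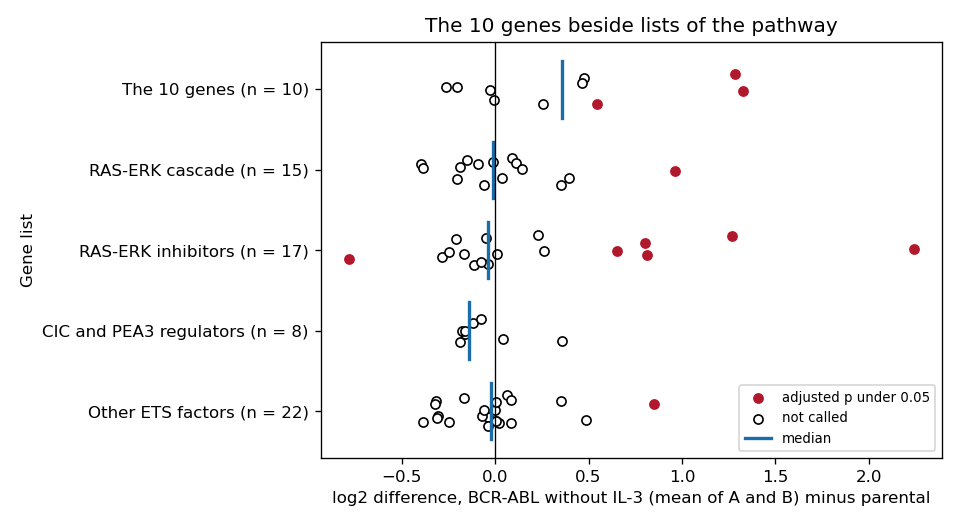
Log2 difference of BCR-ABL cells without IL-3 from parental cells (horizontal axis) for the 10 genes and for 4 lists of the pathway (rows), with a point for each gene, filled at a limma adjusted p under 0.05, and the list's median as a vertical bar. Medians are 0.36 for the 10 genes and between -0.14 and -0.01 for these 4 lists. The MAPK activity score list, which shares 5 genes with the 10, is not drawn and had a median of 0.37.

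For each of the 3 called genes, the named genes with the nearest values on A, B and the IL-3 array were found by Euclidean distance over these 3 log2 differences. Nearest to Etv5 were Srm, which encodes spermidine synthase (distance 0.06), Cd80, which encodes a costimulatory ligand (0.07), and Pinx1 (0.12). The nearest genes to Phlda1 were Tnfsf14, a TNF family ligand (0.18), Ifrd1 (0.19) and Osgin2 (0.25). Spred1 had Rala, a RAS-like GTPase gene (0.02), Tmem245 (0.04) and Pla2g12a (0.04) beside it. Within a distance of 0.25 lay 306 genes for Spred1, 15 for Etv5 and 2 for Phlda1. With 3 arrays that share 1 parental array, such nearness is a description only.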

How the data were processed

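Total RNA of 4 Ba/F3 samples in 3 groups was measured on Affymetrix Gene 1.0 ST arrays, per the labels' protocols. What the authors deposited is a difference from the parental array for each probe set, read here as log2. Background correction, normalization, probe summary and the base of the logarithm are not given in the sources used here. Base 2 is thus a reading, and the fold values rest on it. All 84587 values printed finely enough are whole multiples of 2 to the power of -21, within 0.1 of a step beside rounding. That is the spacing of stored numbers between 4 and 8, and it does not fix the base. An odd multiple marks a stored number below 8, called dim.

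Only the 21780 probe sets with 1 symbol in the platform annotation were used, and the mean was taken per gene. Limma (version 3.58.1, under R 4.3.3) was run on the 4 arrays jointly, with a mean per group and 1 residual degree of freedom, two-sided, with Benjamini-Hochberg adjustment over all genes. The number of arrays limits the precision. The script was tested on simulated data. Members, lists and tests were chosen with earlier results of these data known. Named were all members, called list members and some regulators picked by name. The GGAA core, 6 of the 8 capicua octamers and the windows printed were chosen after the values were seen. Alternatives were centring, a threshold of 0.1, robust empirical Bayes, the 2 groups alone, no dim genes, single probe sets, leaving out A or B, and, for 1 array against 1, a 1.5-fold rule and a limma contrast. The planned filter on mean level was replaced by the dim filter, since the values hold no levels.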

Additional observations from a re-analysis of the deposited data

How the results depend on the processing

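In the first comparison Etv5 and Phlda1 were called under every alternative that allows a test, and were above the parental array on A alone and on B alone. Centring each array on its median left 637 genes called higher and 299 lower in place of 1035 and 572, and 2 of the 10 genes in place of 3. At an adjusted p under 0.1, 5 of the 10 genes were called higher, beside 6.51% of all genes (1297). With probe sets tested singly, 5 of 13 probe sets, of 4 genes, were called higher, beside 5.24% of all probe sets (1141). In the second comparison the genes called higher over all genes were 0 after centring, 2 at an adjusted p under 0.1 and 3 probe sets tested singly, and 0 of the 10 genes were called under any of them. The median of the 10 genes was 0.0043 against B alone and 0.08 against A alone. For cells with IL-3 against parental cells, 3 of the 10 genes were higher under a 1.5-fold rule, beside 3.30% of all genes. The limma contrast has 1 array on each side there, so its count is not given. At least 2-fold higher were 2 of 13 probe sets, a count whose share over all probe sets was not computed. They were that of Phlda1 (1.69) and Etv5 probe set 10363901 (1.02), while Etv5 probe set 10438626 was at 0.92. In the first and second comparisons, fitting only the 2 groups compared gave the same counts, since the residual is the A to B difference in both fits. Leaving out A or B leaves no residual degree of freedom, so only values were computed. Signal over background is unknown, since the deposited values hold no levels.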

Other observations

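Relatives of the Spred and Phlda1 proteins outside the 10 genes were also measured. Of 6 genes for EVH1 domain proteins, the domain that Spred proteins share, 1 was called higher in BCR-ABL cells without IL-3 than in parental cells. Over all genes 5.19% were called higher. The called gene was Enah (log2 0.84, limma adjusted p = 0.00332), at 0.67 on A, 1.02 on B and 0.72 with IL-3. Enah encodes an actin regulator, and its call was lost after centring (limma adjusted p = 0.0652). Vasp (0.12), Evl (-0.09) and the 3 Homer genes (-0.11 to 0.08) did not pass. The relatives of Phlda1 did not pass either, with Phlda3, a p53 target, at 0.54 on A, 0.15 on B and 0.16 with IL-3, and Phlda2 at -0.02, -0.11 and 0.03.

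Gab2, a signalling adaptor recruited through Grb2, lay below the parental array on both arrays without IL-3 and above it with IL-3. It stood at -0.39 on A, -0.38 on B and 0.12 with IL-3. The difference with IL-3 of 0.50 was the largest of the 15 measured cascade genes and did not pass (limma adjusted p = 0.635), and the gene was singled out after its values were seen.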
